A study of Mus musculus with 14 samples.

Results

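The Sirt1-knockdown lines Sir2KD1 and Sir2KD2, derived from the same beta-cell line, were compared directly with each other. Both derive from MIN6, insulin-secreting cells of a mouse islet tumour. The members are the 7 two-colour arrays titled for these lines, 3 of Sir2KD1 and 4 of Sir2KD2, out of 14 arrays in all. Per the labels, both lines came from MIN6 cells at passage 24 by transfection with mU6pro vectors that express 2 different small interfering RNAs against Sirt1, together with a neomycin-resistance plasmid. G418 at 400 micrograms per ml was used to select both. The control line mU6pro was made with the same vector, and RNA of all lines was taken after 4 days in medium with 5 mM glucose. Each array set a knockdown line against mU6pro, so the control cancels in the difference between the lines. The remaining 7 arrays held Sir2OE1 (3 arrays) and Sir2OE2 (4 arrays), lines that carry a retroviral mouse Sirt1 gene, selected in 280 micrograms of G418 per ml, each against a pool of RNA from Neo1 and Neo2, which carry the empty virus. They enter here through the shared estimate of spread and as a second pair of lines. Every SE and p-value of the main fit thus rests on a spread pooled over 14 arrays, with 8 residual degrees of freedom. The knockdown arrays alone leave 4. The median residual SD was 0.397 in the knockdown arrays, 0.321 in the overexpression arrays and 0.386 over all. The labels call the lines independent, do not say whether either is a single clone, and do not describe the slides of a line as separate cultures. Each line is therefore one line, and the p-values cover the spread between slides, which may be technical.

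Sirt1 is an NAD-dependent deacetylase that removes acetyl groups from histones and from transcription factors such as p53 and FoxO proteins, and in beta cells it is known for promoting glucose-stimulated insulin secretion. Small interfering RNAs made from a vector guide the RNA interference machinery to a matching transcript. A stable line is grown out from transfected cells under drug selection. The comparison asks which transcripts were not shared by the lines that carry the same perturbation.

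Each deposited value was a log2 ratio between the channels. Values were centred per probe over 6 of the 7 knockdown arrays, with Sir2KD1 slide 2 outside the centring, and those 6 held the line in channel 2 on 3 arrays and in channel 1 on 3. Values were turned by the channel of the line. The turn is an assumption, and the overall sign of the turned ratio is not settled either, so values are given as plus or minus sides, and it is not known if plus stands for more RNA of the line. A minus-side difference means that the Sir2KD1 value lay below that of Sir2KD2. Which line lay further from mU6pro does not depend on the overall sign. It does depend on the turn: with values left as deposited, 89 probes were called and 0 of them were among the 160 called here. As deposited, same-orientation arrays of the different lines had correlations between -0.131 and 0.0308 over all probes. Arrays of opposite orientation had correlations between -0.328 and -0.0287. Centring makes the 6 arrays sum to 0 at each probe, which by itself lowers the correlations among them. Sir2KD1 slide 2, outside the centring, gave the highest same-orientation values, 0.0308 and 0.017. The correlations therefore do not settle the turn or how alike the lines are. Median values per array ran from -0.0347 to 0.0115 in the knockdown arrays. The SD over probes was 0.651 to 0.728 on the Sir2KD1 arrays and 0.55 to 0.566 on those of Sir2KD2. Ratios carry no level, so signal over background is unknown, the presence of beta-cell markers could not be checked, and precision is limited by how few arrays there are. A bulk ratio cannot tell fewer cells of a kind from less RNA per cell.

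Sirt1, the gene targeted in both lines, was not called between them. On slides 1 to 3 of Sir2KD1 its turned log2 ratio was -0.14, -0.19 and 0.04, and on slides 1 to 4 of Sir2KD2 it was 0.20, 0.09, 0.12 and 0.09. The arrays of Sir2KD2 all lay above those of Sir2KD1, by a small margin. The difference, Sir2KD1 minus Sir2KD2, was -0.22 ± 0.15 (SE, n = 3 and 4), with adjusted p = 0.637. Neither line was called against mU6pro, at -0.10 and 0.12. The sources used here do not place the probe relative to the interfering RNAs' targets, so it does not check the labels.

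Between the lines, 160 of 23230 probes passed the test (limma, Benjamini-Hochberg adjusted p under 0.05 over all probes), a share of 0.689%. They were 98 on the minus side (0.422% of all probes) and 62 on the plus side (0.267%). The 160 probes included 127 with a single gene symbol, from 126 genes, and 33 without one. Their absolute differences ran from 0.86 to 3.73, with a median of 1.60, beside a median absolute difference of 0.26 over all probes. A difference of at least 1 was seen in 146 and of at least 2 in 43. The arrays of the lines did not overlap for any of the 160, as for 15% of all probes. With the 7 knockdown arrays alone, 1 probe was called, that of Smim24. The differences themselves are the same in that fit, since they rest on these arrays in either case, so no probe could change side. Unadjusted limma p-values of the 160 probes were at most 0.00632 there, and 2201 of all probes had one under 0.05. The 160 were picked on these same differences, so their low p-values give no separate support. With limma's robust and trend settings 0 were called, beside 2407 at an unadjusted p under 0.05. With no channel term 576 were called. The number of calls thus changed with how the spread and the channels were modelled.

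Most called probes stood away from mU6pro in Sir2KD1. Of the 160 probes, 111 were called against mU6pro in Sir2KD1 and not in Sir2KD2, a share of 69.4%, with a 95% exact binomial interval of 61.6% to 76.4% that covers counting error only. Another 28 (17.5%) were called in Sir2KD2 and not in Sir2KD1. Both lines were called on a common side for 14, on opposite sides for 3, and neither line for 4. In the 111 probes the median absolute value was 1.33 in Sir2KD1 and 0.30 in Sir2KD2, and in the 28 probes it was 0.34 and 1.25. Over all probes, 833 (3.59%) were called in Sir2KD1 against mU6pro and 312 (1.34%) in Sir2KD2, and the Sir2KD1 values were the more widely spread. These line calls come from the same arrays as the difference and describe it. With the slide number as a replicate block 49 probes were called between the lines, and the share called in Sir2KD1 alone was 38.8% of them.

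**Figure D1:**
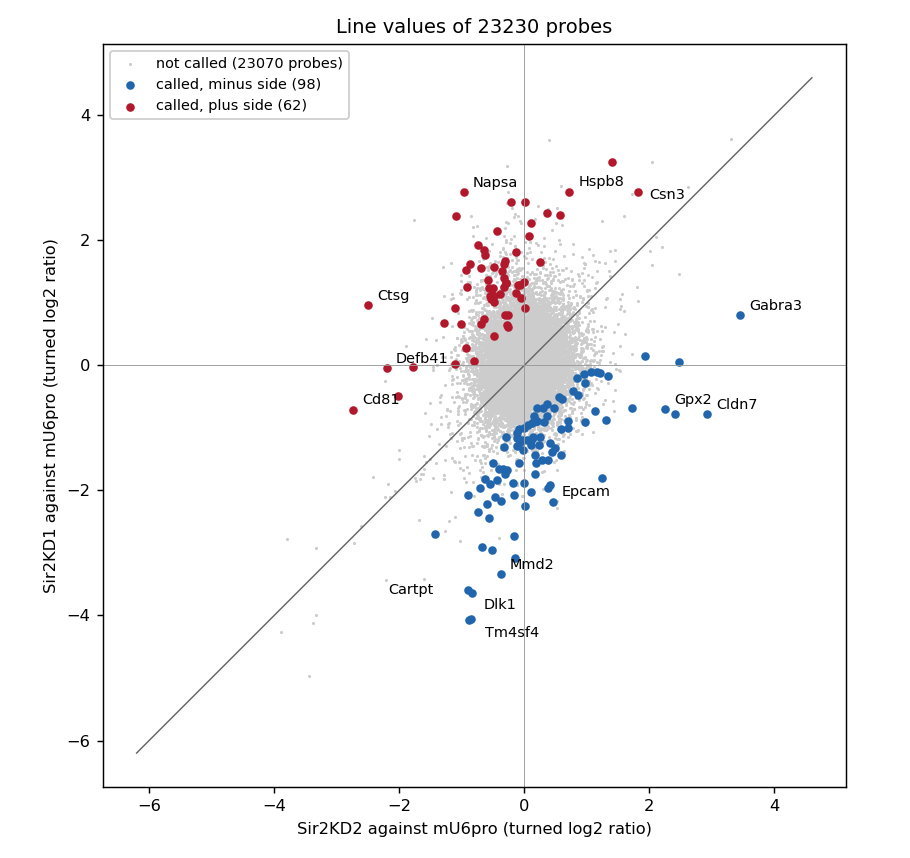
Fitted turned log2 ratio of each probe against mU6pro in Sir2KD2 (horizontal axis) and Sir2KD1 (vertical axis); grey points are probes not called between the lines, blue points the 98 called on the minus side, red points the 62 called on the plus side, and the diagonal marks equal values. Many called probes lie near 0 on the horizontal axis and away from 0 on the vertical axis. A smaller set lies further from 0 on the horizontal axis than on the vertical axis, with Cldn7, Gabra3 and Gpx2 on the right and Defb41 and Cd81 on the left.

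The smallest adjusted p of all probes was that of Dlk1, a Notch-family transmembrane protein encoded by an imprinted gene and known from islet and neuroendocrine cells. Its values on slides 1 to 3 of Sir2KD1 were -3.77, -4.30 and -4.14, and on slides 1 to 4 of Sir2KD2 -0.96, -1.10, -0.91 and -0.55. All 7 arrays lay on the minus side, with those of Sir2KD1 far below those of Sir2KD2. The difference was -3.19 ± 0.19 (SE), a 9.11-fold difference in ratio, with adjusted p = 0.000176. The list of imprinted genes had 1 of 23 measured members called, Dlk1 itself, and a median difference of -0.09. This list and those below were written with earlier results of these data known, and 0.689% of all probes were called. Mest, an imprinted gene far from the control in both lines, was at -2.85 in Sir2KD1 and -2.72 in Sir2KD2, with a difference of -0.13 ± 0.48 (SE). Meg3, the noncoding RNA of the Dlk1 domain, differed by 0.59 ± 0.59 (SE) and was not called. Mirg, another noncoding RNA of that domain, is no member of the list and lies outside the rule for named genes. It was chosen after its values were seen, and was called at -1.41 ± 0.15 (SE), from -1.68 in Sir2KD1 and -0.27 in Sir2KD2.

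Several other genes were called against mU6pro in both lines, on the minus side and further in Sir2KD1. Tm4sf4, a four-transmembrane protein known from islet and liver cells, was at -3.65, -4.68 and -3.83 on slides 1 to 3 of Sir2KD1. On slides 1 to 4 of Sir2KD2 it was at -1.18, -0.94, -0.54 and -0.77. The 3 arrays of Sir2KD1 lay far below those of Sir2KD2, and the difference was -3.20 ± 0.26 (SE), with adjusted p = 0.000606. Smim24, a small membrane protein, was at -3.72, -3.69 and -3.52 in Sir2KD1 and at -0.83, -0.76, -0.80 and -0.94 in Sir2KD2. Its arrays were close together within each line, and it was the single probe called with the knockdown arrays alone, where its adjusted p was 0.0436. Fetub, a liver-type secreted cystatin relative, was called in both lines, at -2.70 and -1.43, and Cpn1, a secreted carboxypeptidase subunit, at -1.82 and -0.63. Fetub and Cpn1 lie outside the rule for named genes and were chosen after their values were seen.

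Cartpt encodes a neuropeptide, cocaine- and amphetamine-regulated transcript, that islet cells also make. Its turned ratio on slides 1 to 3 of Sir2KD1 was -3.72, -3.56 and -3.50, and on slides 1 to 4 of Sir2KD2 it was -1.13, -0.55, -1.39 and -0.54. Both lines lay on the minus side, and the difference was -2.69 ± 0.23 (SE), with adjusted p = 0.000606. Th and Ddc, the enzymes that make dopamine from tyrosine, differed as well. Th was at -1.41, -0.63 and -1.42 in Sir2KD1 and at 0.59, 0.18, 0.14 and 0.11 in Sir2KD2, a difference of -1.41 ± 0.26 (SE). Ddc was at -1.08, -1.49 and -1.17 against 0.43, 0.24, 0.61 and 0.39, a difference of -1.66 ± 0.20 (SE). For both enzymes the lines lay on either side of 0, although neither was called in Sir2KD2 against the control. Th and Ddc were 2 of 24 measured members of the list of neuronal genes, whose median difference was -0.07.

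Genes of the epithelial surface were among the largest differences. Cldn7, a tight junction claudin, had the largest difference on the minus side. It was at -1.10, -0.27 and -0.98 on slides 1 to 3 of Sir2KD1 and at 2.42, 3.74, 3.02 and 2.49 on slides 1 to 4 of Sir2KD2. The distance from mU6pro lay in Sir2KD2 here, where the adjusted p was 8.52e-05, while Sir2KD1 was not called. The difference was -3.70 ± 0.35 (SE), a 13.0-fold difference in ratio, with adjusted p = 0.000896. Epcam, an epithelial adhesion molecule, was at -2.60, -2.06 and -1.89 in Sir2KD1 and at 0.82, 0.50, 0.34 and 0.16 in Sir2KD2. In contrast to Cldn7, its distance from the control lay in Sir2KD1, and the difference was -2.64 ± 0.22 (SE). Cdh1, the E-cadherin of adherens junctions, was at -1.95, -1.73 and -1.99 against -0.44, 0.13, -0.22 and -0.22, a difference of -1.70 ± 0.18 (SE). The 3 Sir2KD1 arrays of Cdh1 were nearly alike and well below those of Sir2KD2. These were 3 of 27 measured members of the epithelial list called, all on the minus side, and the list's median was -0.11. The other claudins of the list were not called: Cldn3 differed by 0.32, Cldn4 by -0.47 and Cldn6 by 0.00. The keratins Krt8, Krt18 and Krt19 were at -0.16, 1.30 and 0.34, without a call.

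Promoter sequence of Dlk1, Cartpt, Th, Epcam and Cldn7 was read from RefSeq on build GRCm38.p6, from 250 bases before to 50 bases after the annotated start. All of these genes were called on the minus side. The windows of Dlk1 and the first of those listed for Cldn7 held neither of the motifs searched and are not printed; the 4 windows shown were picked because they hold one or both. Capitals mark the cyclic AMP response element TGACGTCA, which reads the same on both strands, and the E-box CAGGTG or its complement CACCTG, which repressors of the epithelial state such as Snail proteins are known to bind. The motifs do not overlap each other. Cartpt lies at chr13:99900634-99900933 on the minus strand, Th at chr7:142899946-142900245 on the minus strand, Epcam at chr17:87635729-87636028 on the plus strand, and the second of the windows listed for Cldn7 at chr11:69965171-69965470 on the plus strand.
Cartpt: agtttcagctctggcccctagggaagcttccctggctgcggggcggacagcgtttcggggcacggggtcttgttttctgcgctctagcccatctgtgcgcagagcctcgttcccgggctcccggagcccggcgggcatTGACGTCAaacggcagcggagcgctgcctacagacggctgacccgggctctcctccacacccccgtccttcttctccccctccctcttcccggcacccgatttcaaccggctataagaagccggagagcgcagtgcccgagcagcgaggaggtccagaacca
Th: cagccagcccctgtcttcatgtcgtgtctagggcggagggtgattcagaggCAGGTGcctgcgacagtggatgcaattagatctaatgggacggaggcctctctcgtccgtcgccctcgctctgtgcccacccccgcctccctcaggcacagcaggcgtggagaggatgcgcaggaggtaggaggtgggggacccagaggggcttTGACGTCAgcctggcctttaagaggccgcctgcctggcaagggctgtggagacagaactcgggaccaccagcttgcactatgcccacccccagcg
Epcam: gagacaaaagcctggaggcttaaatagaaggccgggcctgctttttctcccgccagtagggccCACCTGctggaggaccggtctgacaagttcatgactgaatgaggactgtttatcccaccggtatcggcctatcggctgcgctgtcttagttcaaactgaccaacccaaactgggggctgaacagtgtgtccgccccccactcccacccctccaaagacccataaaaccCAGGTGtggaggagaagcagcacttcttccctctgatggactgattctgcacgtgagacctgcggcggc
Cldn7: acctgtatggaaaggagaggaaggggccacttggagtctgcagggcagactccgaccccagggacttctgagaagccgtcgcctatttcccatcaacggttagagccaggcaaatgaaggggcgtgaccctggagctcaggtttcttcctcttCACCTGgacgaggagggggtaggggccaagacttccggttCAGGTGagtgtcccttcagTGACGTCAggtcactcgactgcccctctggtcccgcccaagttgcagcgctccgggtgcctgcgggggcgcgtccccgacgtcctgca

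The motifs were then counted over all called genes with a promoter in the table. TGACGTCA was found in 3 of 69 minus-side genes (4.35%), those being Cartpt, Th and Cldn7, and in 0 of 26 plus-side genes. It was found in 2.81% of all 11756 tested genes with a promoter and in 1.79% of all 32851 promoters of this length. CAGGTG or CACCTG was found in 25 of 69 minus-side genes (36.2%) and 4 of 26 plus-side genes (15.4%), beside 22.6% of tested genes and 20.2% of all promoters. A match is a description of the letters and no evidence of binding. No promoter of Cdh1 was used.

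A second set of minus-side genes was called in Sir2KD1 and not in Sir2KD2. Mmd2, a membrane protein of the progestin and adipoQ receptor family, was at -3.48, -2.85 and -3.70 in Sir2KD1 and at -0.19, -0.42, -0.38 and -0.50 in Sir2KD2, a difference of -2.97 ± 0.23 (SE). Eps8, a regulator of the actin cytoskeleton downstream of the EGF receptor, was at -3.46, -3.19 and -2.59 against 0.31, -0.22, -0.55 and -0.12, a difference of -2.94 ± 0.25 (SE). Iyd, an enzyme that recovers iodide from iodotyrosines, was at -3.02, -2.18 and -2.97 against 0.11, -0.14, -0.27 and -0.34, a difference of -2.56 ± 0.23 (SE). In all of them the Sir2KD2 arrays were close to the control and the Sir2KD1 arrays lay far below. Gatm, the first enzyme of creatine synthesis, was at -3.00, -2.12 and -3.75 against -0.23, -0.75, -0.13 and -0.95, and its Sir2KD1 arrays were more scattered. Its difference was -2.44 ± 0.35 (SE), with adjusted p = 0.0140. Single probes must be read with care for Ighm, the immunoglobulin mu chain. The called Ighm probe differed by -3.05 ± 0.53 (SE), but of 8 other probes of that symbol 4 lay on the same side and 0 were called.

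A further 6 called minus-side genes are described here, which lie outside the rule for named genes and were chosen after their values were seen. The Ras and ERK feedback inhibitors Spry1 and Dusp4 differed by -1.80 ± 0.22 (SE) and -1.07 ± 0.14 (SE), and the growth factor receptor adaptor Gab1 by -2.02 ± 0.23 (SE). The neurotrophin Bdnf was at -1.15 ± 0.14 (SE) and Nrn1, a neurite-promoting membrane protein, at -2.14 ± 0.24 (SE). Gfra3, a co-receptor for the GDNF family, was at -1.81 ± 0.20 (SE). Of these 6 genes, Dusp4 was called in both lines against mU6pro, at -1.57 and -0.50, and the others in Sir2KD1 alone. Also outside that rule and chosen after their values were seen, the ribonucleases Ang and Ang2 and the pseudogene Ang-ps1 differed by -1.79, -1.74 and -1.002. These copies are near-identical and a probe may read more than one of them, which leaves the separate values uncertain.

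A smaller group of minus-side genes resembled Cldn7 in that Sir2KD2 was the line called against mU6pro, on the plus side. Gabra3, a GABA-A receptor subunit, was at 0.15, 0.59 and 1.66 in Sir2KD1 and at 3.58, 3.97, 2.95 and 3.31 in Sir2KD2, a difference of -2.65 ± 0.48 (SE). Mageb16, a melanoma-antigen family gene known from germ cells, was at -1.998, 0.21 and -0.56 against 2.82, 3.22, 2.08 and 1.52, a difference of -3.19 ± 0.56 (SE). Zcchc12, a zinc-finger protein, was at -0.41, 0.45 and 0.10 against 3.21, 2.21, 2.94 and 1.55, a difference of -2.43 ± 0.37 (SE). For these 3 genes every Sir2KD2 array lay above every Sir2KD1 array, since the rule for leading genes required arrays that do not overlap. The Sir2KD1 arrays were the more scattered for Mageb16 and Gabra3. Gpx2, an epithelial glutathione peroxidase, was at -1.38, -0.54 and -0.19 in Sir2KD1 and at 2.04, 3.15, 1.92 and 1.92 in Sir2KD2. Its difference was -2.96 ± 0.41 (SE), with slide 2 of Sir2KD2 above the other arrays of its line. Gpx2 was the 1 called member of 24 in the antioxidant list, whose median was 0.09. Gclm, a subunit of the enzyme that makes the glutathione precursor, lay on the other side at 2.05 ± 0.44 (SE) and was not called, with adjusted p = 0.0744.

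On the plus side, Napsa, an aspartic protease known from lung and kidney, had the largest difference of all named genes. It was at 3.27, 3.04 and 1.98 on slides 1 to 3 of Sir2KD1 and at -1.35, -1.09, -0.70 and -0.73 on slides 1 to 4 of Sir2KD2. Every Sir2KD1 array lay on the plus side and every Sir2KD2 array on the minus side, and each line was called against mU6pro. The difference was 3.73 ± 0.31 (SE), a 13.3-fold difference in ratio, with adjusted p = 0.000606. The other probes called on opposite sides of the control were 4933429K18Rik, a gene of unknown function, and one without a symbol. 4933429K18Rik was at -0.91, -0.37 and -1.44 against 1.15, 0.80, 0.88 and 1.05, a difference of -1.88 ± 0.27 (SE).

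Sfrp5, Tgfbr2 and Ntf5 were called against mU6pro in Sir2KD1 alone, on the plus side. Sfrp5, a secreted antagonist of Wnt ligands, was at 2.15, 2.45 and 3.26 in Sir2KD1 and at -0.56, 0.60, 0.08 and -0.98 in Sir2KD2, a difference of 2.83 ± 0.48 (SE). Tgfbr2, the type II receptor for TGF-beta, was at 2.40, 1.47 and 2.55 against -0.72, -0.42, -0.63 and 0.01, a difference of 2.58 ± 0.42 (SE). In both genes the Sir2KD1 arrays all lay well above the highest Sir2KD2 array. The other Tgfbr2 probe lay on the same side at 0.87 ± 0.71 (SE) and was not called. Ntf5, a neurotrophin, was at 1.88, 0.93 and 1.78 against -1.51, -0.70, -0.81 and -0.70, a difference of 2.46 ± 0.35 (SE). Its Sir2KD2 arrays all lay below 0, with slide 1 lowest, although that line was not called. Ctsg, a serine protease of myeloid granules, was at 0.65, 0.23 and 2.02 against -3.02, -1.65, -2.91 and -2.39, a difference of 3.46 ± 0.58 (SE), and was called in Sir2KD2 alone.

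Defb41 and Cd81 differed through Sir2KD2. Defb41, a beta-defensin gene, was at -0.14, -0.11 and 0.11 in Sir2KD1 and at -1.96, -2.35, -2.16 and -2.34 in Sir2KD2, a difference of 2.15 ± 0.19 (SE). Cd81, a tetraspanin of the cell surface, was at -0.70, -0.73 and -0.70 against -2.75, -2.75, -2.54 and -2.92, a difference of 2.03 ± 0.17 (SE). The arrays within each line were close together for both genes, and the adjusted p was 0.000606 for each. Sir2KD1 lay at the control for Defb41, while Cd81 was called in both lines on the minus side.

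Of the stress proteins, Hspb8, a small heat shock protein of the autophagy chaperone system, was at 2.74, 2.97 and 2.62 in Sir2KD1 and at 0.84, 0.65, 0.18 and 1.22 in Sir2KD2. All 7 arrays lay on the plus side, further in Sir2KD1, and the difference was 2.06 ± 0.25 (SE). It was the 1 called member of 16 heat shock proteins, a list with a median of -0.09. Cryab, a small heat shock protein of the same family, differed by 2.55 ± 0.62 (SE) with adjusted p = 0.118.

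Phlda3 and Ccng1, both known as target genes of p53, were the called members of the 19 p53 targets measured, both on the plus side. Phlda3, which restrains Akt at the membrane, was at 0.71, 0.75 and 0.54 in Sir2KD1 and at -0.81, -1.25, -0.65 and -1.33 in Sir2KD2, a difference of 1.68 ± 0.30 (SE). Ccng1, cyclin G1, was at 0.80, 0.94 and 0.48 against -0.62, -0.74, -0.41 and -0.83, a difference of 1.39 ± 0.22 (SE). The lines lay on either side of 0 for both genes. The list's median was 0.23, and 14 of its members lay on the plus and 5 on the minus side. Over all probes the median was 0.02, and 0.267% were called on the plus side. The list was written with earlier results of these data known, so nothing is read from its counts. Cdkn1a and Mdm2, the best known targets of the list, differed by 0.30 ± 0.23 (SE) and 0.23 ± 0.18 (SE) and were not called.

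The remaining leading plus-side genes were mixed in function. Sntb1, a syntrophin of the dystrophin complex, differed by 2.06 ± 0.26 (SE). Its relative Sntb2, which lies outside the rule for named genes and was chosen after its values were seen, was called at 1.61 ± 0.23 (SE). Kif6, a kinesin motor, differed by 2.48 ± 0.46 (SE), Dcst1 by 2.17 ± 0.37 (SE), Ccdc71l by 1.94 ± 0.34 (SE) and 4930535L15Rik by 2.61 ± 0.46 (SE). For Phip, which binds the insulin receptor substrate IRS-1, the called probe was at 2.39 ± 0.44 (SE), but its other probes were at 0.26 and -0.10. The Tcrb-V8.2 probe, a T-cell receptor segment, differed by 2.17 ± 0.35 (SE), while of 151 other probes of that symbol 100 lay on the same side and 0 were called. Over the 12 called genes with other probes besides Ighm and Tcrb-V8.2, Phip and Tgfbr2 among them, 11 of 15 other probes lay on the same side. The 2 called were the probes of the cytoskeletal GTPase Septin3, each counted as the other of the pair. Same-side probes included some near 0. Those of Dapk1 and Vps13b were at -0.006 and -0.001, beside called probes at -2.26 and -1.26. Those of Gpc4 and Tceal6 were at -1.40 and -1.25.

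**Figure D2:**
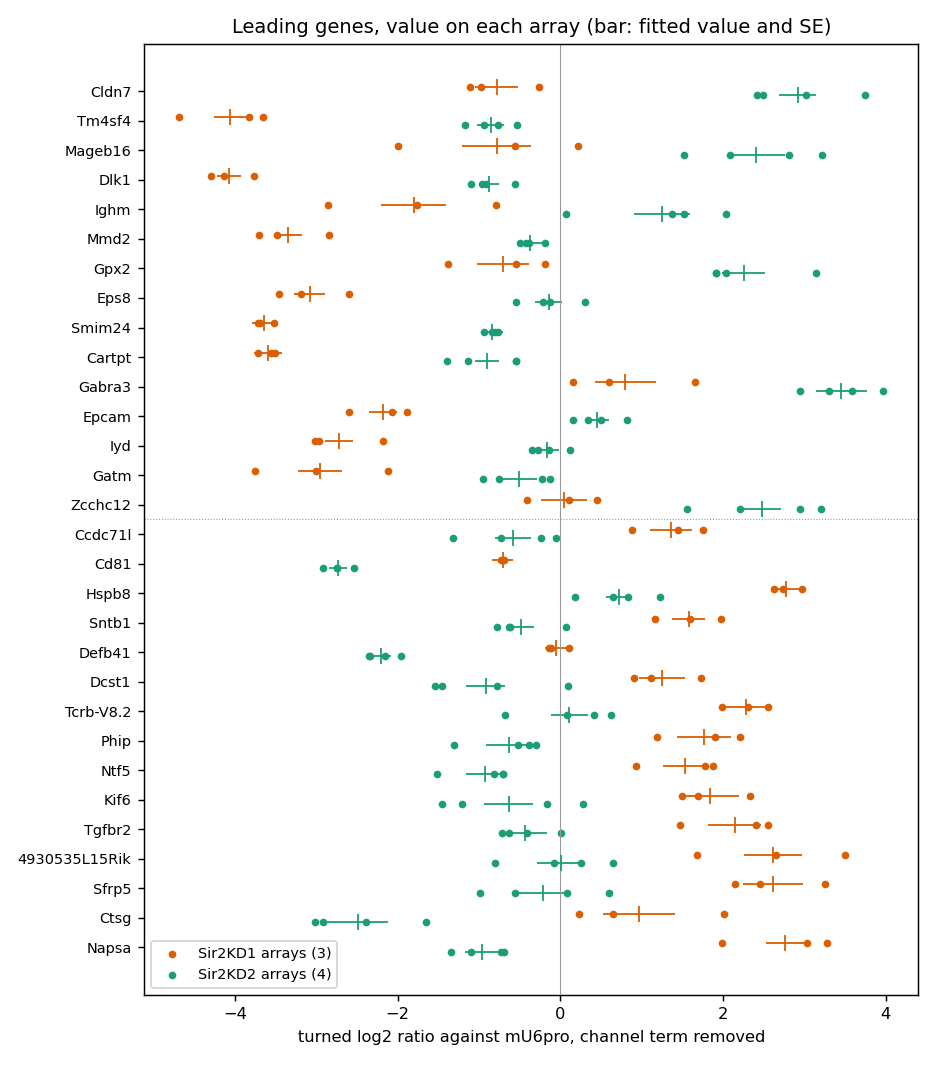
Turned log2 ratio against mU6pro, with the channel term removed, on each array of Sir2KD1 (orange, 3 arrays) and Sir2KD2 (green, 4 arrays) for the 15 leading genes of each side; vertical bars mark fitted values and horizontal bars their SE, and the dotted line separates minus-side from plus-side genes. Leading genes were picked among probes whose arrays do not overlap between the lines, so none of the 30 genes shows overlap. Napsa has its Sir2KD1 arrays between 1.98 and 3.27 and its Sir2KD2 arrays between -1.35 and -0.70.

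In the 5 lists of beta-cell function, 2 of 106 measured genes were called (1.89%), Slc2a2 and Pax4, beside 0.689% of all probes. The lists were written with earlier results known, so nothing is read from this share. Slc2a2, the glucose transporter of beta cells, was at -1.95, -1.97 and -2.31 in Sir2KD1 and -1.19, -0.72, -1.16 and -0.50 in Sir2KD2. It was called against mU6pro in both lines, further in Sir2KD1, and the difference was -1.18 ± 0.21 (SE), with adjusted p = 0.0373. It was the 1 called member of 21 in the list of glucose entry and sensing, whose median was 0.02. Pax4, a homeobox factor of beta-cell development, was at -0.27, -0.42 and -0.52 against 0.78, 0.64, 1.09 and 0.59, a difference of -1.18 ± 0.18 (SE). Its lines lay on either side of 0, and Sir2KD2 alone was called. Pax4 was the 1 called member of 17 beta-cell transcription factors, with a median of -0.18. Pdx1 differed by -0.27 ± 0.17 (SE), Hnf4a by -0.20 ± 0.27 (SE) and the insulin gene Ins2 by -0.38 ± 0.24 (SE), without a call. None of 21 islet hormones and granule proteins, 20 secretion channels and 27 exocytosis genes was called, with medians of -0.01, -0.10 and -0.15. Iapp, Npy and Chgb had identical line values, 0.0694 in Sir2KD1 and 0.0446 in Sir2KD2, which Pgk1 of the glucose list also had. Values shared across genes in this way do not show that these genes were alike in the lines.

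Adcy6, an adenylyl cyclase that makes cyclic AMP, was the 1 called member of 37 genes of G-protein signalling, whose median was -0.07. It was at -0.87, -0.55 and -0.9989 in Sir2KD1 and 0.19, 0.20, 0.04 and 0.22 in Sir2KD2, a difference of -0.97 ± 0.17 (SE). Cpb1, a pancreatic carboxypeptidase, was at -1.66, -1.44 and -1.20 against 0.13, 0.44, 0.10 and 0.02, a difference of -1.61 ± 0.24 (SE). For both genes the Sir2KD2 arrays were at or just above the control. Cpb1 was the 1 called member of 21 exocrine and duct markers, a list whose median lay on the other side, at 0.21. Csn3, the milk protein kappa-casein, was on the plus side in both lines, at 2.80, 2.93 and 2.59 against 2.07, 1.54, 1.83 and 1.83. Its difference of 0.95 ± 0.18 (SE) made it the 1 called member of 12 in the casein and prolactin list.

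Across all 28 lists, 15 of 663 measured genes were called (2.26%), 11 on the minus side and 4 on the plus side, beside 0.689% of all probes. The lists were written with earlier results of these data known, so this share says nothing about the lists. In 17 lists 0 members were called by limma, with medians between -0.65 and 0.13. Those included the sirtuins and NAD supply (12 measured, median -0.10), oxidative phosphorylation (47, -0.04), FoxO targets (19, -0.06), ribosomal proteins (48, 0.02) and the RNA interference machinery (9, -0.08). Rpl3 carried the same line values as Iapp, and the ribosomal median equalled its difference of 0.0248. Rpl11, Cox6c and Cox7c also had the value 0.0446 in Sir2KD2. The ribosomal and oxidative phosphorylation lists thus hold members that say little about the lines. The lowest median, -0.65, was that of the 5 alpha-1-antitrypsin paralogs. In these near-identical genes both lines were far from mU6pro, at list medians of -4.13 and -3.37, and the largest difference, that of Serpina1b, was -1.53 ± 0.35 (SE) with adjusted p = 0.0926. Short marker sets of other cell types, separate from the lists, gave no call: 0 of 5 for other islet cells, 0 of 7 for exocrine and duct cells, 0 of 5 for mesenchymal, 0 of 5 for immune and 0 of 2 for endothelial cells, with medians between -0.25 and 0.11. The exocrine and duct set leaves out Cpb1, which was called at -1.61 in the longer list of such markers. Of 10 measured beta-cell markers Slc2a2 was called, and their median was -0.30. What part cell makeup had in any difference was not tested.

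**Figure D3:**
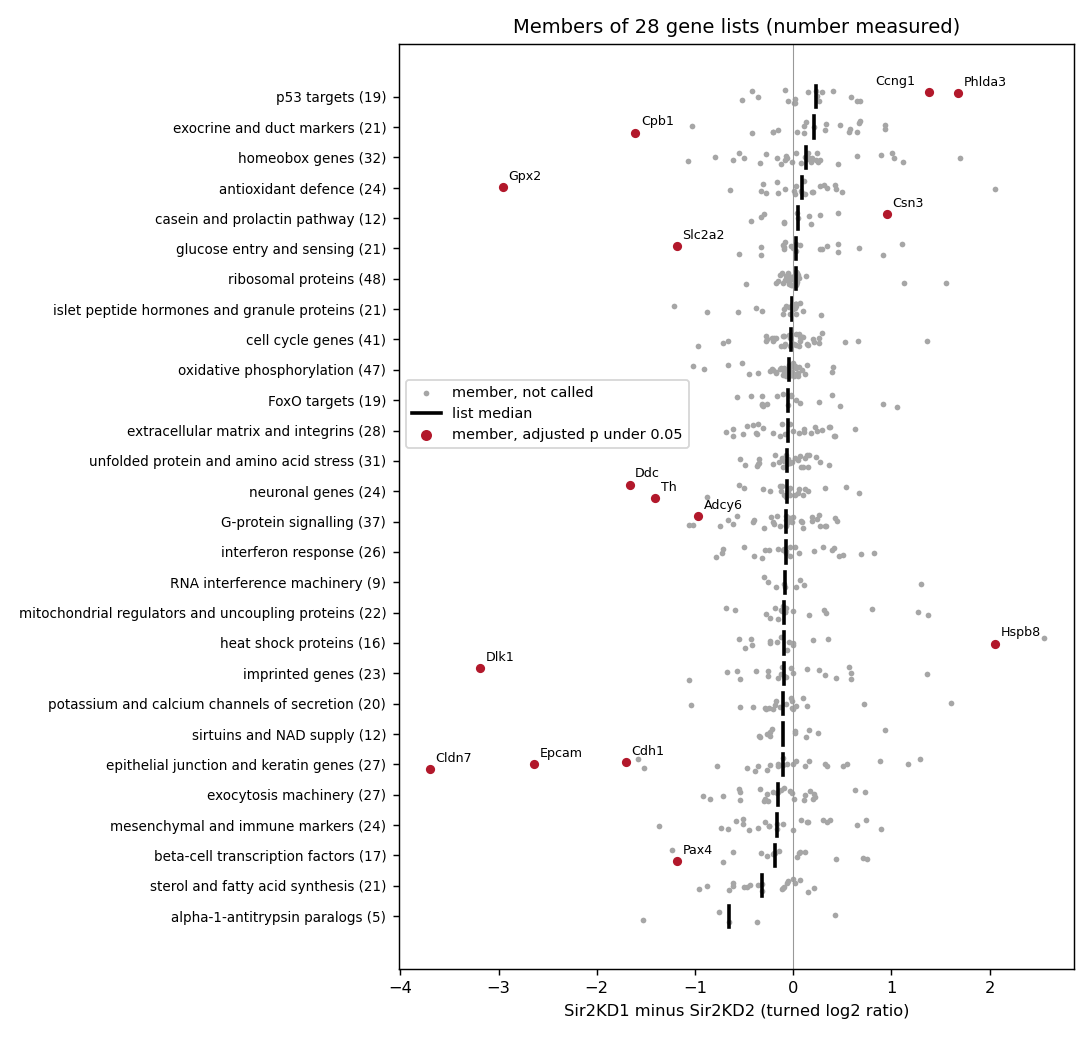
Difference Sir2KD1 minus Sir2KD2 (turned log2 ratio) of the measured members of each of 28 gene lists, with list medians as black bars and called members in red with their names; numbers in brackets are members measured, and vertical scatter within a row has no meaning. Medians lie near 0 in most lists while single members, such as Cldn7 at -3.70 and Hspb8 at 2.06, lie far out.

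The overexpressing lines gave a second pair of lines, measured on other arrays against another control. The calls of the pairs are not independent, since the main fit uses a single spread per probe for both. A probe with a small SE is thereby more readily called in either pair. Sir2OE1 and Sir2OE2 differed at 75 probes (0.323%). Of the 160 knockdown-difference probes, 16 were among them, a share of 10%, and 21.3% of the 75. The 95% exact binomial interval of the 10%, 5.82% to 15.7%, covers counting error only and treats the probes as independent. At the 160 probes the median absolute difference between the overexpressing lines was 0.39, beside 0.21 over all probes. Numbering of the lines is arbitrary, so sides carry no meaning across the pairs: 7 lay on one side in both pairs and 9 on opposite sides. Fitted on its own 7 arrays, the overexpression pair had 23 calls, of which 7 were among the 160. Those 160 still came from the fit over all arrays. Leaving out 1 array lowered the share of 10% to between 2.17% (without Sir2OE2 slide 2) and 9.52% (without Sir2KD1 slide 3), in part below that interval.

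Dlk1 was the clearest of the genes that differed in both pairs. Its overexpression values were -1.46 in Sir2OE1 and 1.24 in Sir2OE2, a difference of -2.70 ± 0.19 (SE) with adjusted p = 0.00031. Defb41 was at 1.26 and -1.35, a difference of 2.61 ± 0.19 (SE). Epcam was at -2.74 and -1.15, a difference of -1.59 ± 0.22 (SE). These 3 genes were thus called in both pairs. Igfbp4, a carrier of insulin-like growth factors, differed by -1.84 ± 0.33 (SE) between the knockdown lines and by -2.62 ± 0.33 (SE) between the overexpressing lines, the latter from 0.04 and 2.66. The transcription factor Klf3 differed by -1.59 and -1.82. Csn3 differed by 0.95 and -1.72, Ang by -1.79 and 1.43, and Msmo1, a sterol synthesis enzyme, by -1.05 and 1.21. Ang-ps1, Necab2, Celsr1, Speer8-ps1 and 4 probes without a symbol completed the 16. Cldn7, in contrast, was at -2.01 and -1.71 in the overexpressing lines and was not called between them, with adjusted p = 0.986.

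**Figure D4:**
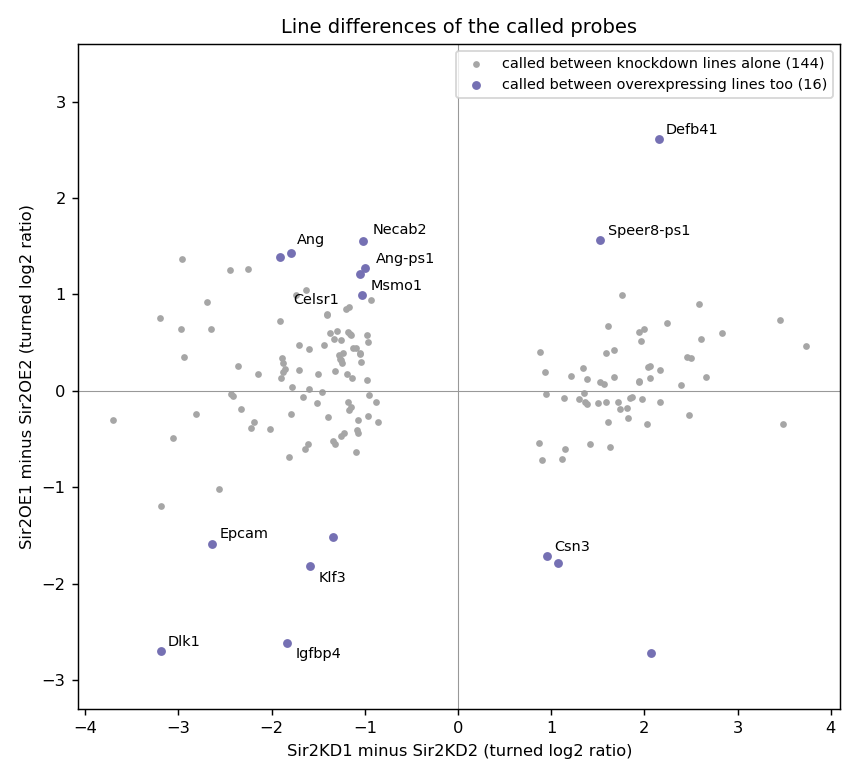
Difference between the knockdown lines (horizontal axis) and between the overexpressing lines (vertical axis), both as turned log2 ratios, for the 160 probes called between the knockdown lines; purple points are the 16 also called between the overexpressing lines, named where they have a symbol. Dlk1 lies at -3.19 and -2.70, and most of the other points lie close to 0 on the vertical axis.

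The place of the called genes was examined last. Called genes lay on 20 of 21 chromosomes, with at most 13 on any of them. The X chromosome held 11 of the 123 placed (8.94%), beside 3.52% of the genes tested. It was picked out after its values were seen, was not the chromosome with most called genes, and its share was not tested. Over 14856 genes placed in gene order, the median difference per chromosome ran from -0.02 to 0.06 over 21 chromosomes. Of all called genes, 2 pairs were next to each other. Tspan2os, an antisense transcript, and the tetraspanin Tspan2 beside it differed by -2.36 ± 0.26 (SE) and -1.27 ± 0.24 (SE). Zmat1 and Tceal6, neighbours on the X chromosome, were called on opposite sides, at 1.30 ± 0.25 (SE) and -1.39 ± 0.21 (SE), and the other Tceal6 probe was at -1.25 with adjusted p = 0.0763. The sources used here do not say if the probes of Tspan2 and Tspan2os read separate strands.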

How the data were processed

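Each of 14 two-colour arrays set an MIN6-derived line against its control RNA. The authors deposited log2 channel ratios, which their values show to be centred per probe within each kind of line; undoing the centring gave whole-number percents for 100% of complete probes (relative tolerance 1e-05). The sources used here do not give array software, background correction, normalization or the channel on top. Signs were turned where channel 1 held the line. A probe was tested if every line had values on 2 or more arrays (23230 of 23232). Limma 3.58.1 in R 4.3.3 (lmFit, eBayes; two-sided) was fitted over 14 arrays with 4 line coefficients and a channel term per kind, and the contrast Sir2KD1 minus Sir2KD2 was adjusted by Benjamini-Hochberg over all probes at 0.05. The script was tested on simulated data. Probes were named from platform annotation of 2007, in which 16885 had 1 symbol, 143 several and 6204 were not listed. Symbols of 16205 were updated through Entrez identifiers (RefSeq table of GRCm38.p6). A list gene was read from the probe with most values, then the first. List members were not filtered for the fixed ratio that 173 knockdown probes shared. Named genes were the 15 with the largest difference on each side among called, singly named probes with values on all 7 knockdown arrays, no fixed ratio shared by many probes, and lines that do not overlap; Sirt1; called list members; called genes with lines on opposite sides; and called neighbours. Members and lists were chosen with earlier results of these data known. Slide numbers did not pair the lines: same-numbered arrays had correlations of deviations of -0.389, 0.237 and -0.235. Alternatives were other arrays, channel, turn, normalization, filter, spread, weight and block settings, and leaving out each array.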

Additional observations from a re-analysis of the deposited data

Results flagged for a closer look

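All 160 probes called between Sir2KD1 and Sir2KD2 are differences between groups under the same contrast, by the test of the difference itself. Napsa (3.73), the unnamed probe 21511 (2.03) and 4933429K18Rik (-1.88) were in addition called on opposite sides of mU6pro in the 2 lines.

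The 4 Sir2KD2 arrays were examined for each of 47 named probes, and 3 of these had an array far from the others. Chance alone gives such a gap in about 1 in 20 groups, so a count of 3 is near what chance gives. For Gpx2 it was slide 2 of Sir2KD2, at 3.15. For Th it was slide 1 of Sir2KD2, at 0.59, and for Ntf5 slide 1 of Sir2KD2, at -1.51. Groups of 3 arrays were not examined in this way, so Sir2KD1 could give none.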

How the results depend on the processing

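Against 160 probes called in the fit as reported, the count was 1 with the 7 knockdown arrays only, 576 with no channel term, 68 after quantile normalization, 0 with robust and trend settings, 91 with array weights, 40 at an adjusted p under 0.01, and 49 with the replicate block by slide number. Leaving out 1 array gave 86 to 248. The count moved by over 1.5 times without Sir2OE1 slide 2 (100), Sir2OE2 slides 1, 2 or 3 (86, 92, 95), Sir2KD1 slides 1 or 3 (248, of which 183 plus; 105) and Sir2KD2 slides 1, 3 or 4 (88, 91, 98). All 160 kept their side in these settings and in median centring and the probe filters, where 160 to 162 were called. Some settings leave the differences themselves unchanged, so the side was fixed in advance there. They are the knockdown arrays only, the robust and trend settings, the probe filters and leaving out an overexpression array. Of the list genes (15), 0 were called with the knockdown arrays only and 0 with robust and trend settings, 32 with no channel term, 8 after quantile normalization, 5 with the replicate block and 8 to 12 without 1 array (8 without Sir2KD1 slide 1). The share called in Sir2KD1 only (69.4%) was 50% after quantile normalization, 57.1% with array weights, 38.8% with the block and 61.2% to 74.6% without 1 array. The share also called between the overexpressing lines (10%) was 2.17% to 9.52% without 1 array. The replicate block left 37 of the 160 called. The causes were not tested.

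With values not turned, 89 probes were called (12 at an adjusted p under 0.01), 14 plus and 75 minus, 0 of the 160 and 0 list genes were among them, 29 of the 160 kept their side, 13.5% of the 89 were called in Sir2KD1 only and 0% between the overexpressing lines. Named genes on the other side then, none called, were Cldn7 (0.35), Tm4sf4 (1.13), Dlk1 (1.00), Mmd2 (0.43), Eps8 (0.13), Smim24 (0.48), Cartpt (0.39), Epcam (0.032), Iyd (0.16), Gatm (0.43), 4933429K18Rik (0.37), Cdh1 (0.27), Ddc (0.53), Cpb1 (0.049), Tceal6 (0.077), Tspan2 (0.30), Slc2a2 (0.39), Pax4 (0.39), Adcy6 (0.12), Csn3 (-0.15), Zmat1 (-0.83), Ccng1 (-0.20), Phlda3 (-0.29), Cd81 (-0.39), probe 21511 (-0.66), Hspb8 (-0.46), Sntb1 (-0.91), Defb41 (-0.54), Tcrb-V8.2 (-0.10), Phip (-1.17), Ntf5 (-0.072), Kif6 (-0.91), Tgfbr2 (-0.21), Sfrp5 (-1.13), Ctsg (-1.07) and Napsa (-0.14). Sirt1 was not called in any setting run. A comparison of 3 arrays with 4 by exact permutation cannot go below p = 0.0571. Signal over background is unknown.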

Other observations

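Genes of the X chromosome were called in either line. This group was chosen after its values were seen, and no test was made of it. Of 123 called genes with a known place, 11 were X-linked (8.94%), beside 523 X-linked genes (3.52%) of all that were tested. On the minus side were 9 and on the plus side 2, while the median difference of X-linked genes was -0.02 and that of the others 0.00. Gabra3, Mageb16, Zcchc12 and Rhox5 were called in Sir2KD2 alone, at 3.45, 2.41, 2.48 and 1.73 against 0.80, -0.78, 0.05 and -0.69 in Sir2KD1. Rhox5 is a reproductive homeobox gene, and its difference was -2.42. Gpc4, a cell-surface proteoglycan, Cltrn, collectrin of the beta-cell membrane, Bex1, Tceal6 and Cited1 were called in Sir2KD1 alone on the minus side, at -1.89, -1.35, -1.30, -1.83 and -0.89. Phex, a membrane endopeptidase, and Zmat1 were called in Sir2KD1 alone on the plus side, at 1.24 and 1.16.

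Single enzymes of metabolism were also called, again chosen after their values were seen. Tpi1, the glycolytic triosephosphate isomerase, differed by 0.93 ± 0.17 (SE) and Suclg2, a succinyl-CoA ligase subunit, by 0.90 ± 0.17 (SE), both on the plus side. Hpgds, which makes prostaglandin D, differed by -1.13 ± 0.20 (SE), and Dpp4, the peptidase that degrades incretin hormones, by -1.05 ± 0.19 (SE).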
